A study of Arabidopsis thaliana with 82 samples.

Results

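The class III homeodomain-leucine zipper (HD-ZIP III) family of Arabidopsis thaliana has 5 genes: HB8 (AT4G32880), REV (REVOLUTA, AT5G60690), PHB (PHABULOSA, AT2G34710), PHV (PHAVOLUTA, AT1G30490) and HB15 (CORONA or CNA, AT1G52150). They were taken by gene identifier, not by their values, and are 5 of the 27416 genes in the deposited table. All 5 passed the filter on low values, which left 20766 genes for tests. Poly(A) RNA was sequenced from hypocotyls of Col-0 seedlings in 82 libraries, 41 groups of 2 biological replicates. The seedlings were 7 days old, grew in 8 h of light at 20 °C without sucrose, and all of them, intact plants included, lost 1 cotyledon. Grafted top and grafted bottom are hypocotyl tissue from above and below the junction of plants rejoined from pieces of 2 different seedlings. Separated top and separated bottom are the same regions of plants that were severed across the hypocotyl and kept apart, and intact hypocotyls were not severed. Each of these 5 conditions was taken at 6, 12, 24, 48, 72, 120, 168 and 240 h after cutting, and intact hypocotyls also at 0 h. Whether a library pools several plants was not given in the sources used here. In TAIR10 the genes lie at chr4:15863339-15868650 (HB8), chr2:14639323-14644355 (PHB), chr1:10796124-10801093 (PHV) and chr1:19409688-19414764 (HB15), all on the minus strand, and at chr5:24396981-24402195 on the plus strand (REV), with 17 or 18 exons each.

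HD-ZIP III genes encode plant transcription factors that carry a homeodomain and leucine zipper, which bind DNA as a dimer, and a START lipid-binding domain. They are known for setting the upper side of leaves, for keeping the shoot meristem, and for patterning vascular tissue, where they act in procambium, cambium and developing xylem. HB8 marks procambium and is induced by auxin through the auxin response factor MP (MONOPTEROS), whereas REV, PHB, PHV and HB15 act in overlapping ways in polarity, meristem and vascular development. The microRNAs miR165 and miR166 cut the messages of all 5 genes at 1 conserved site, the LITTLE ZIPPER proteins bind HD-ZIP III proteins and block them, and KANADI factors oppose the family in organ polarity.

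The microRNA site, which is common to all members, is shown first. Mature microRNAs and gene models were read from RefSeq's TAIR10.1 reference. The 2 loci of miR165 (miR165a-3p and miR165b) and the 7 loci of miR166 give 2 distinct mature sequences with 1 seed, bases 2 to 8, in capitals:
miR165a-3p: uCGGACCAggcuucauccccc
miR166a-3p: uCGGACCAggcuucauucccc
The target site of each member follows, 5′ to 3′ on the message, with capitals on the bases that do not form a Watson-Crick pair with miR165a-3p:
HB8: CUgggaugaagccugguccgG
REV: CUgggaugaagccugguccgG
PHB: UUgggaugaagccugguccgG
PHV: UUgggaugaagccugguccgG
HB15: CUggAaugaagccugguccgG
HB8 and REV carry the same 21 bases, PHB and PHV differ from them at the first base, and HB15 differs within the site. Against miR165a-3p the site of HB15 has 4 positions without a Watson-Crick pair and the other 4 members have 3. In each member 1 of these is a G:U pair. Against miR166a-3p the order turns, with 3 positions without a Watson-Crick pair in HB15 and 4 in each of the others. Of these, 1 in HB15 and 2 in the others are G:U pairs. All 21 bases lie in coding sequence in every member and are spliced from 2 exons, 11 bases from exon 4 and 10 from exon 5, or from exons 5 and 6 in HB8. In TAIR10.1 the 2 blocks are chr4:15866964-15866974 and chr4:15866872-15866881 (minus strand) in HB8, and chr5:24398787-24398797 and chr5:24398889-24398898 (plus strand) in REV. They are chr2:14642656-14642666 and chr2:14642530-14642539 in PHB, chr1:10799435-10799445 and chr1:10799330-10799339 in PHV, and chr1:19413075-19413085 and chr1:19412976-19412985 in HB15, all on the minus strand. The microRNAs themselves were not measured, and their precursor genes are not used here.

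HB8 is the member whose level differed most between conditions. The 250 bases before its start (chr4:15868651-15868900, minus strand) hold 2 matches to the 2 auxin response element motifs that were searched. The motifs searched on both strands were TGTCTC and TGTCGG, and capitals mark the match to TGTCTC on the gene's own strand, 67 bases before the start, and the match to TGTCGG on the opposite strand, 77 bases before it:
HB8 upstream: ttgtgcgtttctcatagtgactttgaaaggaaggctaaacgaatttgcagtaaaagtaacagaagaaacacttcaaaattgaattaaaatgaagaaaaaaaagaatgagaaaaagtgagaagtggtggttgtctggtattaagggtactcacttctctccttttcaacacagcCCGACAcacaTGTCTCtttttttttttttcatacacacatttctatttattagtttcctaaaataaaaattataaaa
The same windows of REV, PHB, PHV and HB15 hold neither motif. Other forms of the auxin response element were not searched in any window and are not marked above. Of the windows before 27443 protein-coding genes, 10.9% hold TGTCTC, 4.16% hold TGTCGG and 14.7% hold either, so a match here is a description of the letters only.

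Levels are given as x, the authors' library-normalised value multiplied by 1 constant that sets the median library total to 1 M. Sequencing depth, estimated for 52 of 82 libraries from the steps between low values, was 7.55 to 20.2 M reads (median 12.4 M), and an x of 1 stands for 6.66 to 22.0 reads. Replicates of a group correlated at 0.971 to 0.993 on the log scale over all tested genes. The shoot meristem genes WUS, CLV3 and CUC2 and the root genes PLT1, PLT2 and WOX5 were listed at 0 in every intact library. Other genes of these lists were present. At 6 to 24 h intact medians were 2.91 in STM, 285.4 in KNAT1 and 28.2 in KNAT6. The sum of 8 root markers ran from 64.9 to 88.0 there, with 1 of them averaging an x of at least 1. The sum of the 4 epidermis genes ATML1, PDF2, PDF1 and FDH was lower in cut than in intact hypocotyls at 6 to 24 h without overlap, with medians of 375, 285, 396 and 198 in grafted tops, grafted bottoms, separated tops and separated bottoms, against 835 in intact hypocotyls. Its part in the comparisons with intact plants was not tested. In bulk tissue fewer cells of a type and less RNA per cell cannot be told apart, which holds for every difference given here.

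HB8 was far below the intact level in separated bottoms, and from 48 h it was above the intact level in grafted bottoms. At 6 to 24 h the 6 libraries of grafted bottoms ran from 39.6 to 84.5 (median 68.7), those of separated bottoms from 2.35 to 6.88 (median 4.01), and those of intact hypocotyls from 53.3 to 109.6 (median 76.2). At 48 h HB8 was at 127.6 and 151.8 in grafted bottoms and 3.64 and 6.47 in separated bottoms, against 101.6 and 98.8 in intact hypocotyls. At 72 h it was at 199.7 and 225.7 in grafted bottoms and 5.26 and 5.02 in separated bottoms, against 87.9 and 129.3 in intact hypocotyls. All 16 libraries of separated bottoms lay below every library of the other 4 conditions, the highest being 18.8 at 168 h. At 120 to 240 h grafted bottoms ran from 159.3 to 276.6 (median 203) and separated bottoms from 4.45 to 18.8 (median 13.1), against 99.7 to 126.3 (median 106.1) in intact hypocotyls.

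**Figure D1:**
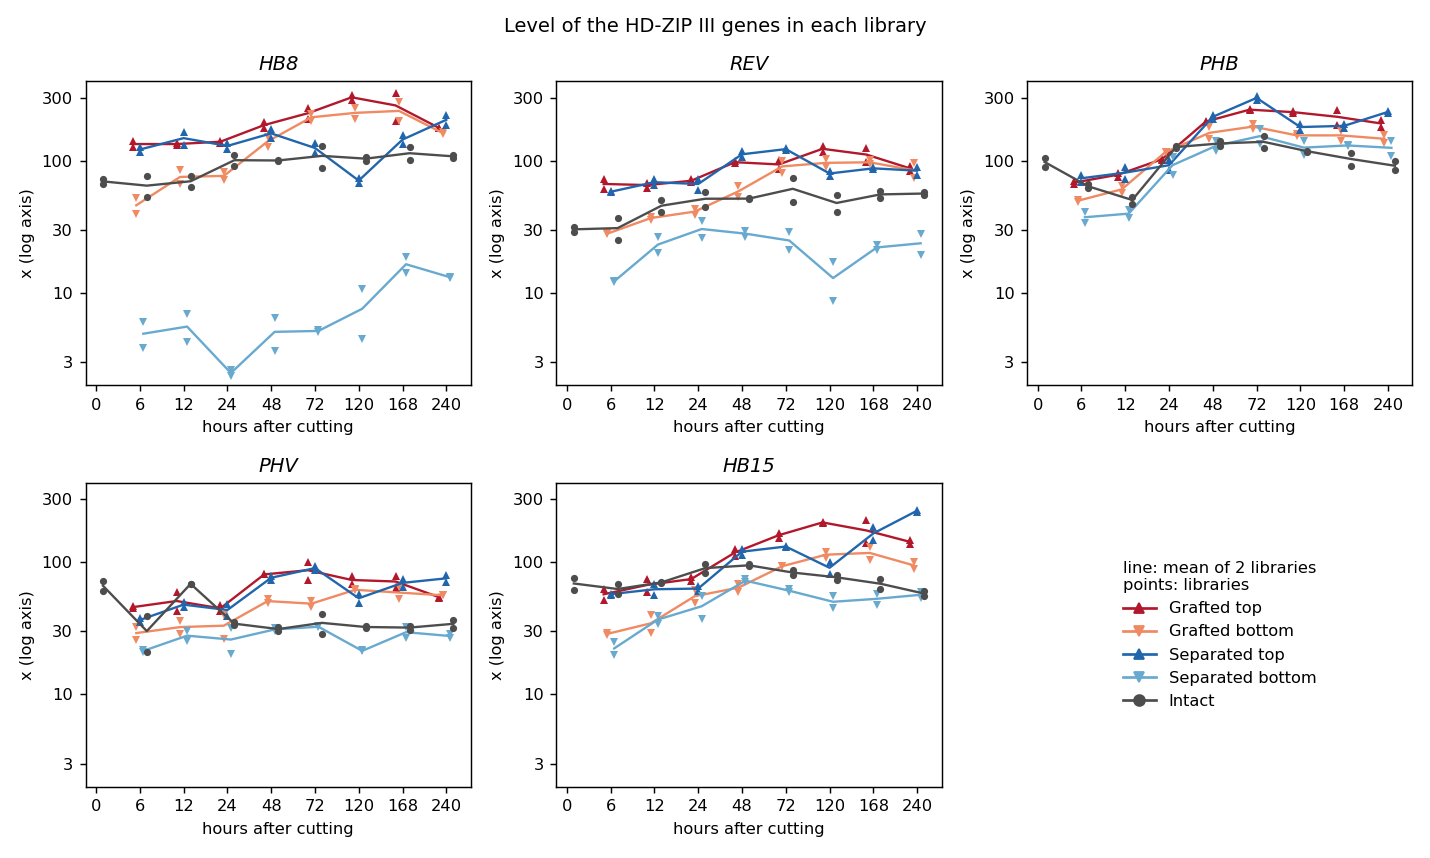
Level of each HD-ZIP III gene (x, log axis) in every library against hours after cutting (axis evenly spaced by sampling time), with points for libraries and lines for the mean of 2 libraries, in grafted top, grafted bottom, separated top, separated bottom and intact hypocotyls. HB8 in separated bottoms sits between 2.35 and 18.8, apart from all other conditions, while PHB in separated bottoms lies between 33.7 and 173.4.

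Differences were tested over 3 windows, 6 to 24 h, 48 to 72 h and 120 to 240 h, as the mean over the times of the difference of log2(x + 1) within a time, with limma and p-values adjusted over all 20766 genes. HB8 was higher in grafted than in separated bottoms by 3.68 ± 0.14 (SE; 12.8-fold, adjusted p = 2.9e-26), 4.85 ± 0.17 (28.8-fold, adjusted p = 8.2e-28) and 4.05 ± 0.14 (16.5-fold, adjusted p = 3.2e-29) in the 3 windows. Separated bottoms fell below intact hypocotyls by 3.94 ± 0.14, 4.12 ± 0.17 and 3.13 ± 0.14 on the log2 scale, with adjusted p at or below 8.4e-25. Grafted bottoms did not pass the test against intact hypocotyls at 6 to 24 h (-0.25 ± 0.14, adjusted p = 0.13). Within that window they lay below intact libraries without overlap at 6 h (39.6 and 52.3, against 53.3 and 76.0) and 24 h (71.4 and 81.8, against 109.6 and 91.8). At 12 h the 2 conditions overlapped. Grafted bottoms were higher than intact hypocotyls by 0.73 ± 0.17 at 48 to 72 h and 0.92 ± 0.14 at 120 to 240 h. Each of these calls held with any 1 library left out.

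REV, which is required for organ polarity and for the fibres and secondary xylem of the stem, followed HB8 at a smaller size. At 6 h it was at 28.2 and 27.8 in grafted bottoms and 12.2 and 12.1 in separated bottoms, against 25.1 and 36.6 in intact hypocotyls. At 120 h it was at 90.2 and 102 in grafted bottoms and 17.2 and 8.66 in separated bottoms, against 54.5 and 41.1 in intact hypocotyls. Grafted bottoms lay above separated bottoms at all 8 times without overlap of the libraries. REV was higher in grafted than in separated bottoms by 0.74 ± 0.12, 1.43 ± 0.14 and 2.26 ± 0.12 in the 3 windows (adjusted p = 1.6e-06, 5.1e-12 and 4.1e-22), and the difference at 120 to 240 h is 4.78-fold. Separated bottoms fell below intact hypocotyls by 0.98 ± 0.12, 1.06 ± 0.14 and 1.47 ± 0.12. Grafted bottoms were at -0.24 ± 0.12 from intact hypocotyls at 6 to 24 h (adjusted p = 0.090) and higher by 0.38 ± 0.14 at 48 to 72 h and 0.79 ± 0.12 at 120 to 240 h. The first of these 3 passed the test without intact 6 h replicate 1 (-0.33) or intact 24 h replicate 2 (-0.30). The second lost its call, at 0.23 to 0.39, without grafted bottom 48 h replicate 1, grafted bottom 72 h replicate 2, intact 48 h replicate 1 or 2, or intact 72 h replicate 1, and with only the compared groups fitted (adjusted p = 0.13). REV overlaps AT5G60700 on the opposite strand, and whether counting used strand was not given in the sources used here. AT5G60700 had medians of 25.7 in grafted and 59.6 in separated bottoms at 6 to 24 h, 17.6 and 12.9 at 48 to 72 h, and 22.9 and 14.1 at 120 to 240 h, so at 6 to 24 h its order was opposite to that of REV.

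PHB, a determinant of the upper leaf side that also acts in root xylem, parted from HB8 in separated bottoms. At 6 h it was at 50.6 and 48.8 in grafted bottoms and 33.7 and 40.8 in separated bottoms, against 66.0 and 61.7 in intact hypocotyls. At 240 h it was at 157.3 and 135.1 in grafted bottoms and 141.5 and 108.4 in separated bottoms, against 98.6 and 84.2 in intact hypocotyls. PHB in separated bottoms was thus lower than in intact hypocotyls at 6 to 24 h (-0.52 ± 0.09, adjusted p = 1.0e-06), at 0.04 ± 0.11 from them at 48 to 72 h (adjusted p = 0.80) and higher at 120 to 240 h (0.29 ± 0.09, adjusted p = 0.0032). Under quantile normalisation the second value was -0.22 (adjusted p = 0.064) and the third lost its call at 0.04 (adjusted p = 0.69). Grafted bottoms exceeded separated bottoms by 0.45 ± 0.09, 0.28 ± 0.11 and 0.26 ± 0.09 in the 3 windows, and the value at 48 to 72 h lost its call, at 0.19 to 0.26, without grafted bottom 48 h replicate 1 or 72 h replicate 2 or separated bottom 48 h replicate 2 or 72 h replicate 1, and with only the compared groups fitted (adjusted p = 0.12). Against intact hypocotyls grafted bottoms were at -0.07 ± 0.09, then higher by 0.32 ± 0.11 and 0.55 ± 0.09. The middle value lost its call without grafted bottom 48 h replicate 1 (0.24) or intact 72 h replicate 1 (0.25), or with only the compared groups fitted (adjusted p = 0.062).

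PHV, the nearest relative of PHB, and HB15, which acts in meristems and vascular bundles, showed differences in bottoms that grew with time. At 240 h PHV was at 56.3 and 56.2 in grafted bottoms and 26.9 and 28.5 in separated bottoms, against 31.8 and 36.7 in intact hypocotyls. At 240 h HB15 was at 101.0 and 88.6 in grafted bottoms and 59.7 and 53.8 in separated bottoms, against 60.4 and 55.6 in intact hypocotyls. For both genes the grafted bottoms lay above the other 2 conditions at that time, and separated bottoms of HB15 overlapped the intact libraries. PHV was higher in grafted than in separated bottoms by 0.32 ± 0.11, 0.63 ± 0.14 and 1.15 ± 0.11 in the 3 windows. The first of these lost its call, at 0.22 to 0.28, without grafted bottom 6 h replicate 1, 12 h replicate 2 or 24 h replicate 2 or separated bottom 12 h replicate 2 or 24 h replicate 1, and with only the compared groups fitted (adjusted p = 0.18). HB15 was at 0.17 ± 0.10 and 0.22 ± 0.12 in the first 2 windows (adjusted p = 0.17 and 0.11) and higher by 1.01 ± 0.10 at 120 to 240 h (adjusted p = 4.2e-13). The first value passed without separated bottom 24 h replicate 2 (0.27), and the second under quantile normalisation (0.42) and with only the compared groups fitted (adjusted p = 0.030).

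Against intact hypocotyls, HB15 was lower below the cut at 6 to 24 h in joined and in separated plants. HB15 fell by 0.94 ± 0.10 in grafted bottoms and by 1.11 ± 0.10 in separated bottoms at 6 to 24 h, with libraries at 28.1 to 61.6 (median 34.6) and 19.7 to 55.8 (median 35.7), against 57.5 to 97.6 (median 70.5) in intact hypocotyls. PHV fell by 0.38 ± 0.11 and 0.70 ± 0.11 in the same comparisons, and the value of grafted bottoms lost its call without intact 6 h replicate 2 (-0.23, adjusted p = 0.072) or with only the compared groups fitted (adjusted p = 0.12). PHV in intact hypocotyls varied within that window, at 20.96 and 39.33 at 6 h, 68.9 and 68.5 at 12 h and 35.1 and 33.5 at 24 h. Grafted bottoms lay below them without overlap only at 12 h, with 28.65 and 36.0, and overlapped them at 6 h, with 32.45 and 25.8, and at 24 h, with 26.1 and 40.1. By 120 to 240 h grafted bottoms were higher than intact hypocotyls by 0.67 ± 0.10 in HB15 and 0.82 ± 0.11 in PHV, and separated bottoms were lower by 0.34 ± 0.10 in HB15 and 0.33 ± 0.11 in PHV.

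Counted over the family, 4, 4 and 5 of 5 members were higher in grafted than in separated bottoms in the 3 windows, where 34.6%, 60.5% and 70.2% of all tested genes were called in either direction and 17.5%, 30% and 35.6% were called higher. Grafted bottoms lay above separated bottoms without overlap of the 2 libraries each at 8 of 8 times in HB8 and REV, 7 in PHB, 6 in PHV and 5 in HB15, which at 48 h lay below. Such times were not counted over all genes, so these numbers describe the members and do not set them apart from other genes. Separated bottoms differed from intact hypocotyls in 5, 3 and 5 members (background 54.7%, 56.3% and 63.6% in either direction, 30.4%, 28.5% and 31.2% lower), lower in all of them but PHB at 120 to 240 h, where 32.4% of genes were higher. Grafted bottoms differed from intact hypocotyls in 2, 4 and 5 members (48.8%, 46.8% and 53.6%), PHV and HB15 lower at 6 to 24 h (28.4% of genes lower) and all called members higher later (20.3% and 25.4% of genes higher). The count of 2 was 1 without intact 6 h replicate 2, and the count of 4 was 2 without grafted bottom 48 h replicate 1 or without intact 72 h replicate 1. With 34.6% to 70.2% of all genes called in these comparisons, a count over 5 members says little by itself, and the sizes in HB8 and REV carry the description.

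**Figure D2:**
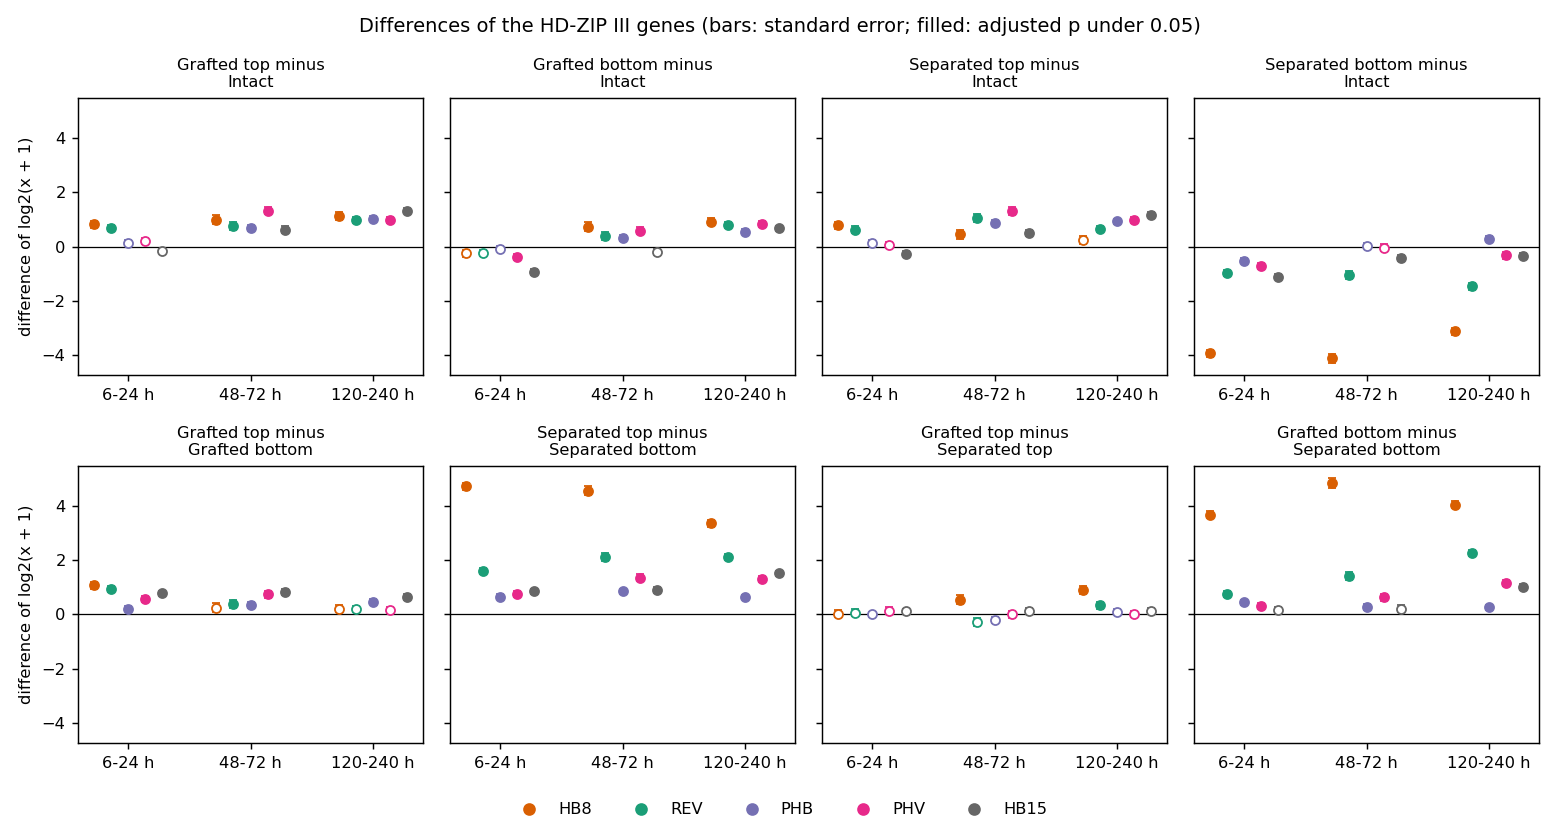
Differences of log2(x + 1) for the 5 genes (colours) in 8 comparisons over 3 time windows, with points for the fitted difference, bars for its standard error, and filled points where the adjusted p is under 0.05. HB8 stands apart from the other members in each comparison that contains separated bottoms, at -3.13 to -4.12 against intact hypocotyls.

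Above the cut HB8 and REV were higher than in intact hypocotyls from the first window, and the other members from 48 h. At 6 to 24 h HB8 ran from 127.2 to 141.5 (median 135.9) in grafted tops and from 116.0 to 164.4 (median 129.0) in separated tops, against 53.3 to 109.6 (median 76.2) in intact hypocotyls. Neither group of tops overlapped the intact libraries in HB8. HB8 exceeded intact hypocotyls by 0.82 ± 0.14 in grafted tops and 0.78 ± 0.14 in separated tops, and REV by 0.69 ± 0.12 and 0.62 ± 0.12. HB15 was at -0.16 ± 0.10 in grafted tops (adjusted p = 0.16) and lower by 0.27 ± 0.10 in separated tops. That last call was lost, at -0.22 to -0.23, without separated top 12 h replicate 1, intact 6 h replicate 2 or intact 24 h replicate 2. PHB was at 0.14 ± 0.09 in both kinds of tops and passed in both under quantile normalisation (0.21 in each), and in grafted tops with only the compared groups fitted (adjusted p = 0.022). PHV was at 0.19 ± 0.11 in grafted tops, passing without grafted top 12 h replicate 1 (0.27) or intact 6 h replicate 2 (0.34), and at 0.05 ± 0.11 in separated tops.

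From 48 h every member was higher in grafted tops than in intact hypocotyls, by 0.62 ± 0.12 (HB15) to 1.33 ± 0.14 (PHV) at 48 to 72 h and by 0.98 ± 0.11 (PHV) to 1.32 ± 0.10 (HB15) at 120 to 240 h. PHB at 72 h was at 245.2 and 240.7 in grafted tops and 288.6 and 307.5 in separated tops, against 124.8 and 152.5 in intact hypocotyls, and separated tops at that hour held its highest level in the series. HB15 was highest in separated tops at the end, with 81.7 and 100.1 at 120 h, 147.2 and 183.7 at 168 h and 249.5 and 242.1 at 240 h. Over the 3 windows 2, 5 and 5 members were called in grafted tops (background 62.5%, 58.2% and 55.4% in either direction, 31.7%, 31.5% and 30.6% higher). In separated tops 3, 5 and 4 were called (62.8%, 67.3% and 71.4% in either direction, 32%, 40.2% and 44.7% higher, 30.8% lower at 6 to 24 h, as HB15 was), the exception at the end being HB8 at 0.24 ± 0.14 (adjusted p = 0.12). This value of HB8 passed under quantile normalisation (0.43, adjusted p = 0.0031) and with only the compared groups fitted (adjusted p = 0.026). HB8 in separated tops at 48 to 72 h was higher by 0.44 ± 0.17, a call lost, at 0.31 to 0.39, without separated top 48 h replicate 2 or 72 h replicate 2 or intact 72 h replicate 1. Separated tops at these times also held RNA of root genes. Of 8 root markers 7 at 48 to 72 h and 8 at 120 to 240 h averaged an x of at least 1 in separated tops, where their sum ran from 58.3 to 189.3 and from 17.2 to 186.8. In grafted tops it was 44.5 to 72.5 and 34.2 to 55.0, with 3 and 5 markers averaging an x of at least 1. In intact hypocotyls it was 69.8 to 124.0 and 57.4 to 73.6, with only 1 marker, SCR, at that level. The part of root tissue in the levels of separated tops was not tested.

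Grafted and separated plants differed less above the cut than below it in HB8 and REV. The difference of the 2 differences was called with limma in 3, 4 and 4 members over the 3 windows, all in that direction (background 22%, 55.4% and 69.6% in either direction, 11.6%, 32.3% and 41.6% lower), HB8 and REV in each window. Between grafted and separated tops no member was called at 6 to 24 h, with differences of 0.00 to 0.14, where limma called 72 of all genes (0.347%), and 44 without grafted top 24 h replicate 2. At 48 to 72 h 1 member and at 120 to 240 h 2 members were called (background 22.6% and 49.3% in either direction, 8.29% and 19.5% higher). HB8 was higher in grafted than in separated tops by 0.54 ± 0.17 and 0.90 ± 0.14 in these windows, and at 120 h its libraries were at 315.4 and 286.9 in grafted tops, against 67.3 and 73.9 in separated tops. At 240 h the order of HB8 turned, with 175.0 and 177.6 in grafted tops, against 220.5 and 186.8 in separated tops. The call at 48 to 72 h was lost, at 0.47 to 0.51, without grafted top 48 h replicate 2 or 72 h replicate 2 or separated top 48 h replicate 1 or 72 h replicate 1, which leaves 0 members. REV was higher by 0.33 ± 0.12 at 120 to 240 h, a call lost without grafted top 168 h replicate 2 (0.28, adjusted p = 0.068), which leaves 1 member. REV at 48 to 72 h ran the other way, at -0.29 ± 0.14 (adjusted p = 0.15), without overlap at 48 h and at 72 h, and passed with only the compared groups fitted (adjusted p = 0.042). HB15, at 0.14 ± 0.10 at 120 to 240 h, passed without grafted top 168 h replicate 1 (0.23).

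Within grafted plants the top exceeded the bottom in all 5 members early and in 2 of them late. At 6 to 24 h all 5 members were higher in grafted tops than in grafted bottoms (background 64.8% in either direction, 37.8% higher), by 1.07 ± 0.14 in HB8, 0.93 ± 0.12 in REV, 0.78 ± 0.10 in HB15, 0.58 ± 0.11 in PHV and 0.21 ± 0.09 in PHB. At 48 to 72 h 4 were called (47.1%, 27.6% higher) and at 120 to 240 h 2 (23.6%, 12.4% higher), namely HB15 at 0.65 ± 0.10 and PHB at 0.47 ± 0.09. At 120 to 240 h HB8 was at 0.21 ± 0.14, REV at 0.20 ± 0.12 and PHV at 0.15 ± 0.11, and under quantile normalisation HB8 (0.35) and REV (0.30) passed as well. HB8 at 48 to 72 h was at 0.26 ± 0.17 (adjusted p = 0.22) and passed under quantile normalisation (0.51, adjusted p = 0.0069). PHB at 6 to 24 h lost its call, at 0.18 to 0.21, without grafted top 6 h replicate 1, 12 h replicate 2 or 24 h replicate 2 or grafted bottom 6 h replicate 2 or 12 h replicate 1, and under median-of-ratios scaling (0.18, adjusted p = 0.057). At 24 h PHB ran the other way without overlap, with 101.8 and 103.3 in grafted tops, against 115.7 and 116.5 in grafted bottoms. REV at 48 to 72 h (0.39 ± 0.14) lost it, at 0.31 to 0.38, without grafted top 48 h replicate 2 or 72 h replicate 2 or grafted bottom 48 h replicate 2 or 72 h replicate 1. In separated plants all 5 members were higher in tops than in bottoms in every window (background 72%, 76.6% and 79.6% in either direction, 40.4%, 47.2% and 49.4% higher), with REV at 1.61 ± 0.12, 2.11 ± 0.14 and 2.12 ± 0.12. Between separated tops and separated bottoms the median of all genes was itself at 0.26 at 48 to 72 h and 0.25 at 120 to 240 h, and at 0.07 and 0.04 under quantile normalisation. Against those medians PHB, at 0.85 ± 0.11 and 0.64 ± 0.09, was the least raised member.

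The courses by time show where each member peaked. HB8 in grafted bottoms was at 39.6 and 52.3 at 6 h, 65.95 and 84.5 at 12 h and 71.4 and 81.8 at 24 h, and it was highest at 168 h in replicate 2 and at 120 h in replicate 1 (276.6 and 251.9). In grafted tops it was highest at 168 h in replicate 2 and at 120 h in replicate 1 as well (323.2 and 315.4), and in both the 2 libraries at 240 h were below those of 120 h. In separated tops HB8 dipped at 120 h to 67.3 and 73.9, below both intact libraries of that hour, and was at 133.0 and 155.3 at 168 h. REV in separated tops was highest at 72 h, with 124.4 and 119.8, against 85.9 and 101.2 in grafted tops at that hour, and lay at 76.8 and 82.95 at 120 h. PHV in separated tops also had its highest level at 72 h, with 93.5 and 87.3, and was at 57.7 and 49.2 at 120 h. All 5 members were thus lower in separated tops at 120 h than at 72 h in both replicates, while in grafted tops HB8, REV and HB15 were higher at 120 h than at 72 h in both replicates. These comparisons of single times rest on 2 libraries each and have no test. PHB in grafted bottoms was at 56.6 and 64.6 at 12 h and 115.7 and 116.5 at 24 h, and in separated bottoms at 36.9 and 42.5 at 12 h and 78.2 and 106.4 at 24 h. Intact hypocotyls showed the same step in PHB between 12 and 24 h, and PHV and HB8 did not share it in separated bottoms, where HB8 was lower at 24 h, with 2.35 and 2.59, than at 12 h, with 4.21 and 6.88.

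The levels at 120 to 240 h, each as mean ± SD of 6 libraries, order the conditions in every member. HB8 was at 246.4 ± 69.7 in grafted tops, 209.7 ± 46.9 in grafted bottoms, 139.5 ± 61.0 in separated tops, 12.4 ± 4.70 in separated bottoms and 108.3 ± 9.68 in intact hypocotyls. REV followed the same order at 107.0 ± 18.9, 92.6 ± 10.1, 83.7 ± 5.38, 19.5 ± 6.49 and 53.2 ± 6.42. In both genes grafted tops and grafted bottoms were not told apart by the test, and separated bottoms lay lowest. HB8 in separated tops was not told apart from intact hypocotyls either (adjusted p = 0.12 with limma). PHB was at 212.7 ± 27.0 in grafted tops, 152.2 ± 12.2 in grafted bottoms, 198.7 ± 28.2 in separated tops, 126.9 ± 14.2 in separated bottoms and 104.0 ± 14.6 in intact hypocotyls, so intact hypocotyls were lowest in PHB. PHV was at 66.5 ± 11.1, 59.1 ± 4.66, 66.3 ± 11.4, 26.2 ± 4.31 and 32.9 ± 2.02 in the same conditions. HB15 was at 172.4 ± 33.8, 108.9 ± 14.9, 167.4 ± 70.5, 53.3 ± 5.88 and 67.9 ± 9.57. In PHB, PHV and HB15 the test over this window did not tell the tops of grafted and separated plants apart. Their order turned within it. In each of these genes grafted tops lay above separated tops at 120 h and below them at 240 h, without overlap. HB15 was at 198.3 and 202.3 in grafted tops at 120 h, against 81.7 and 100.1 in separated tops. At 240 h it was at 138.2 and 147.2, against 249.5 and 242.1.

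Intact hypocotyls also changed over the same days. Between 6 to 24 h and 120 to 240 h intact plants were called in 4 of 5 members (background 45.3% in either direction, 20.8% higher and 24.5% lower). PHB was higher late by 0.47 ± 0.09, HB8 by 0.50 ± 0.14 and REV by 0.35 ± 0.12, PHV was lower by 0.31 ± 0.11, and HB15 was at -0.12 ± 0.10. The call of REV was lost, at 0.26 to 0.30, without intact 6 h replicate 1, 12 h replicate 1, 24 h replicate 2 or 120 h replicate 1, and with only these intact groups fitted (adjusted p = 0.060). The call of PHV was lost, at -0.16 to -0.29, without intact 6 h replicate 2, 168 h replicate 1 or 240 h replicate 1, and with only these intact groups fitted (adjusted p = 0.12). Within the early window PHV was raised at 12 h alone, with 68.9 and 68.5. Its libraries at 6 and 24 h, at 20.96 to 39.33, spanned the late range of 30.9 to 36.7. At 0 h, outside the windows, it was at 60.1 and 72.7. PHB within intact plants was not steady, at 66.0 and 61.7 at 6 h, 47.3 and 53.4 at 12 h and 128.7 and 124.6 at 24 h. Both libraries at 24 h lay above its late range of 84.2 to 118.5, so its rise rests on 6 and 12 h. At 24 h HB8 (109.6 and 91.8) and REV (58.1 and 44.75) overlapped their late ranges of 99.7 to 126.3 and 41.1 to 58.8. The late times are whole days after cutting, unlike 6 and 12 h. Age and hour of day can therefore not be told apart in this comparison of windows.

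Per gene length the makeup of the family differed between separated bottoms and the rest. For this the table that the authors also divided by gene length was used, and each member is given as its share of the summed level of the 5 genes in a library. HB8 made up a median of 3.69% of the family level in separated bottoms at 6 to 24 h (range 1.12% to 5.79%), against 24.0% (21.7% to 27.0%) in intact hypocotyls. At 48 to 72 h its share was 1.86% (1.35% to 2.49%) in separated bottoms, against 24.4% in intact hypocotyls, and at 120 to 240 h 5.30%, against 29.6%. In grafted bottoms HB8 made up 26.5%, 33.4% and 32.8% in the 3 windows, so HB8 had the largest median share there from 48 h. PHB was the largest member in separated bottoms, with median shares of 37.6%, 51.9% and 52.1%, against 25.3%, 32.3% and 28.1% in intact hypocotyls. REV held 15.3%, 9.88% and 8.68% in separated bottoms, against 13.8%, 13.1% and 15.3% in intact hypocotyls. Shares sum to the whole, so a fall of 1 member raises the others, and no test was run on them.

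**Figure D3:**
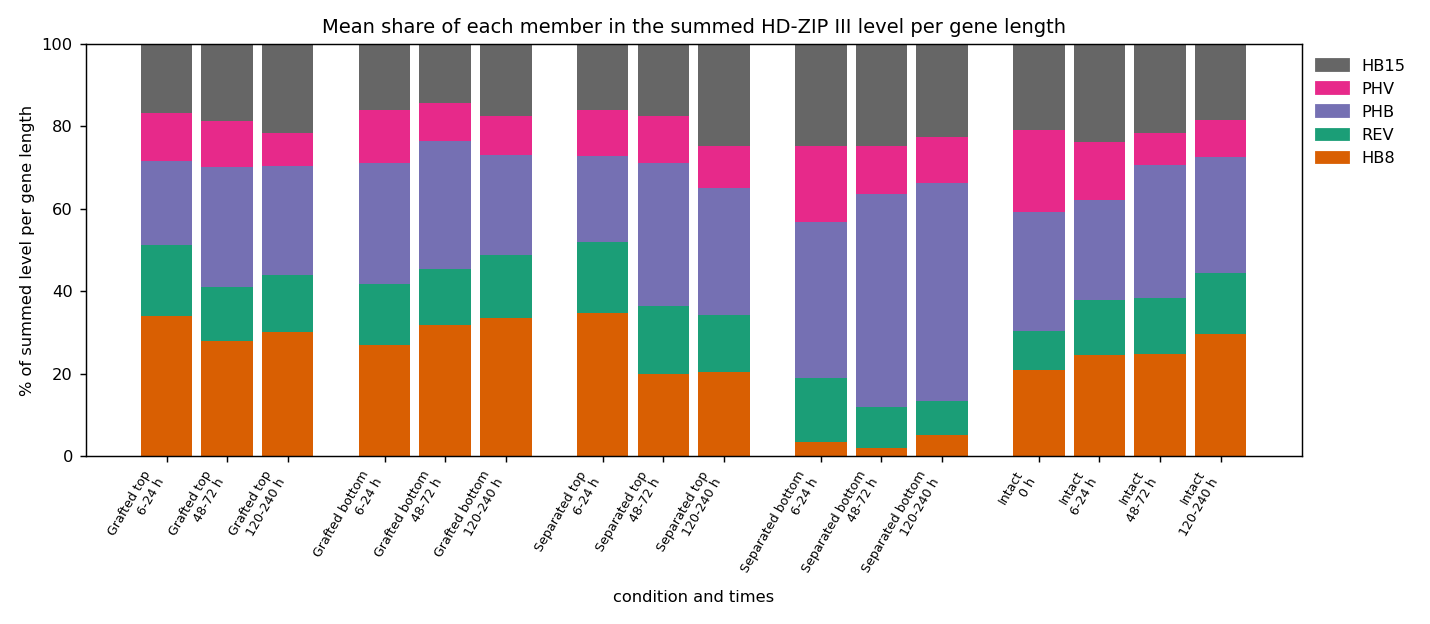
Mean share (%) of each member in the summed HD-ZIP III level per gene length, stacked from 0 to 100%, for grafted top, grafted bottom, separated top, separated bottom and intact hypocotyls in each time window, with 0 h for intact plants only. HB8, at the base of each bar, shrinks to 1.89% to 5.13% in separated bottoms, where PHB takes 37.8% to 53.0%.

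Auxin-linked vascular regulators split in separated bottoms. MP, the auxin response factor upstream of HB8, was not low there: at 6 to 24 h its median was 50.9 in grafted bottoms and 44.0 in separated bottoms, against 20.9 in intact hypocotyls. MP was higher than in intact hypocotyls by 1.26 ± 0.11 in grafted bottoms and 1.04 ± 0.11 in separated bottoms, and the difference between them was 0.23 ± 0.11 (adjusted p = 0.11). Grafted exceeded separated bottoms in MP by 1.82 ± 0.13 at 48 to 72 h and 1.66 ± 0.11 at 120 to 240 h. TMO5 and T5L1, MP-dependent factors that drive vascular cell division with LHW, were near 0 in separated bottoms. TMO5 at 120 to 240 h had medians of 55.1 in grafted bottoms and 0.89 in separated bottoms, against 58.0 in intact hypocotyls, the low level resting on few reads. T5L1 had medians of 30.3 in grafted bottoms and 1.70 in separated bottoms, against 80.1 in intact hypocotyls. LHW moved otherwise and was lower in grafted than in separated bottoms by 0.63 ± 0.08 at 6 to 24 h. Of these 4 regulators 2, 3 and 3 were higher and 1, 1 and 0 lower in grafted than in separated bottoms, with list medians of 0.61, 1.81 and 2.62 beside 0.00, 0.00 and 0.01 over all genes, of which 34.6%, 60.5% and 70.2% were called.

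Genes reported as HD-ZIP III targets were mostly low in separated bottoms too. ACL5, a thermospermine synthase of xylem reported downstream of HB8, had medians of 20.6 in grafted bottoms and 0.32 in separated bottoms at 6 to 24 h, against 91.1 in intact hypocotyls, and 115.4 and 17.0, against 169.2, at 120 to 240 h. BUD2, which makes the substrate of ACL5, was listed at 0 in all 4 libraries of separated bottoms at 48 to 72 h, with a median of 1.98 in grafted bottoms, against 10.5 in intact hypocotyls. HAT2, a class II homeodomain-leucine zipper gene, had medians of 18.4 and 0.16 in grafted and separated bottoms at 6 to 24 h, against 12.5 in intact hypocotyls, and was higher in grafted than in separated bottoms by 4.13 ± 0.20 (adjusted p = 3.1e-22). Its relatives HAT3, HB2 and HB4 were lower than intact hypocotyls in both kinds of bottoms in every window. TAA1, an auxin synthesis enzyme, was lower in grafted than in separated bottoms by 1.02 ± 0.29, 1.01 ± 0.36 and 1.38 ± 0.29. Of 9 reported targets 7, 8 and 8 were higher and 1, 1 and 1 lower in grafted than in separated bottoms, with list medians of 1.31, 1.83 and 2.08, where 34.6%, 60.5% and 70.2% of all genes were called. Against intact hypocotyls 6 of 9 were lower in separated bottoms in each window, beside 30.4%, 28.5% and 31.2% of all genes lower. In grafted bottoms 6, 5 and 6 were lower, with list medians of -1.32, -1.22 and -0.58, where 48.8%, 46.8% and 53.6% of all genes were called in either direction. Thus ACL5, BUD2, HAT2, HAT3, HB2 and HB4 were below the intact level in grafted bottoms at 120 to 240 h, when all 5 HD-ZIP III genes were above it.

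Genes that act on the family showed smaller differences. Of the LITTLE ZIPPER genes ZPR1 and ZPR3 could be tested, and ZPR2 did not pass the filter. ZPR1 at 48 to 72 h was at 10.4 to 15.9 in grafted bottoms (median 13.5) and 4.94 to 7.93 in separated bottoms (median 6.64), against 4.86 to 8.50 (median 6.88) in intact hypocotyls. Grafted bottoms exceeded separated bottoms in ZPR1 by 0.94 ± 0.26 at 48 to 72 h and 1.45 ± 0.21 at 120 to 240 h. Both kinds of tops exceeded intact hypocotyls at 48 to 72 h, grafted tops by 1.61 ± 0.26 and separated tops by 1.81 ± 0.26. Grafted and separated tops were not told apart in that window (-0.20 ± 0.26, adjusted p = 0.65 with limma). Of 4 KANADI genes 1, 1 and 1 were higher and 0, 1 and 2 lower in grafted than in separated bottoms, KAN2 by -0.69 ± 0.13 and -1.07 ± 0.11 in the later windows. In the microRNA pathway AGO10, an Argonaute that binds miR165 and miR166 and keeps them from AGO1, was lower in grafted than in separated bottoms by 0.76 ± 0.12, 0.81 ± 0.14 and 0.38 ± 0.12. Its median at 48 to 72 h was 44.7 in grafted bottoms and 80.7 in separated bottoms, against 41.6 in intact hypocotyls. AGO1, the Argonaute that cuts the targets, was lower than in intact hypocotyls by 0.80 ± 0.06 in grafted bottoms and 0.71 ± 0.06 in separated bottoms at 6 to 24 h. Of 7 pathway genes 0, 1 and 2 were higher and 2, 3 and 3 lower in grafted than in separated bottoms, with list medians of -0.11, -0.13 and -0.11. The shares of these called, 2, 4 and 5 of 7, are near the 34.6%, 60.5% and 70.2% called among all genes.

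**Figure D4:**
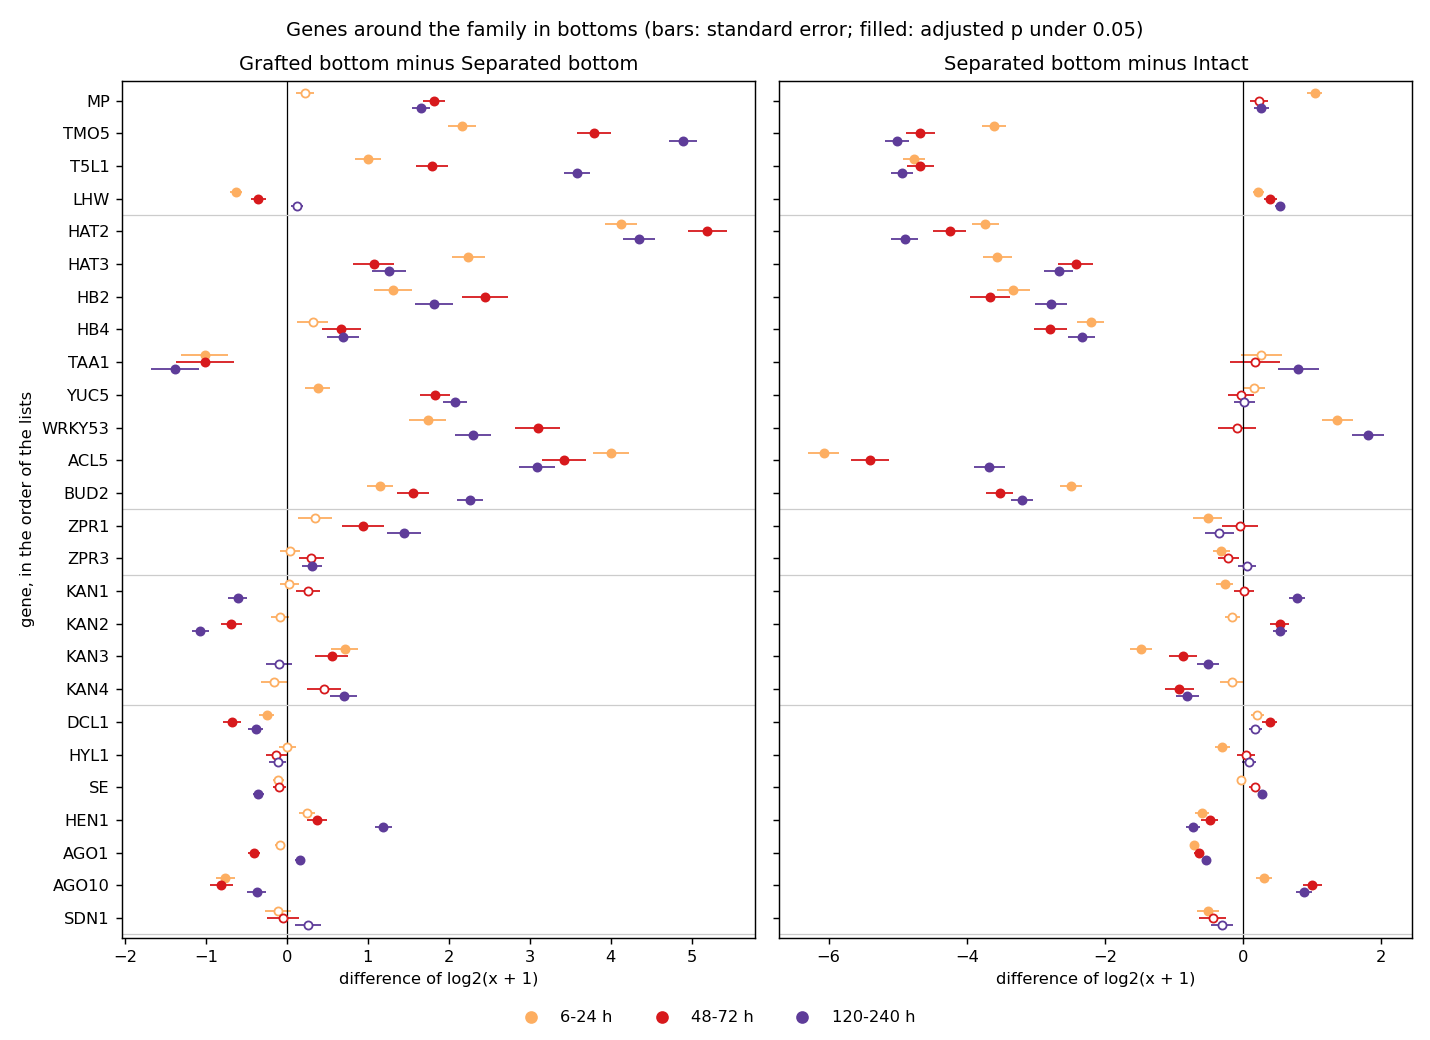
Difference of log2(x + 1) for the regulators, reported targets, LITTLE ZIPPER, KANADI and microRNA pathway genes, grafted minus separated bottoms (left) and separated bottoms minus intact hypocotyls (right), in 3 time windows (colours), with bars for the standard error and filled points where the adjusted p is under 0.05. TMO5, T5L1, HAT2, ACL5 and BUD2 lie far above 0 on the left and far below 0 on the right, while KANADI and microRNA pathway genes stay closer to 0.

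Cambium and xylem markers were low in separated bottoms, as HB8 was, and phloem markers only in part at first. The sum of 6 cambium genes (PXY, WOX4, WOX14, ANT, CYCD3;1 and LBD4) ran from 39.3 to 160.0 in grafted bottoms and 5.02 to 32.0 in separated bottoms at 6 to 24 h, against 75.3 to 183.0 in intact hypocotyls. At 120 to 240 h it ran from 365.0 to 438.0 in grafted bottoms and 5.26 to 29.9 in separated bottoms, against 157.5 to 185.3 in intact hypocotyls. Grafted bottoms exceeded separated bottoms in 5, 6 and 6 of these 6 genes, where 17.5%, 30% and 35.6% of all genes were higher. PXY was higher by 3.32 ± 0.17, 4.82 ± 0.20 and 4.03 ± 0.17. Of 10 xylem genes separated bottoms were lower than intact hypocotyls in 10, 10 and 9, where 30.4%, 28.5% and 31.2% of all genes were lower. The xylem sum in separated bottoms ran from 4.86 to 16.8 at 6 to 24 h, against 113.9 to 214.4 in intact hypocotyls. In separated bottoms at 48 to 72 h VND6, VND7 and CESA8 were listed at 0. Of 4 phloem genes 2, 4 and 4 were lower in separated bottoms than in intact hypocotyls, beside the same shares of all genes. At 6 to 24 h BAM3 was at -2.68 ± 0.13 (adjusted p = 6.8e-23 with limma) and SEOR1 at -1.04 ± 0.25 (adjusted p = 0.00046). APL was at 0.00 ± 0.10 (adjusted p = 0.99) and SUC2 at -0.52 ± 0.26 (adjusted p = 0.090). The phloem sum, with none of the 4 genes at 0, ran from 60.4 to 74.8 in separated bottoms at 120 to 240 h, against 283.6 to 332.5 in intact hypocotyls. In grafted bottoms at 6 to 24 h HB8 was not called against intact hypocotyls, and 9 of 10 xylem genes were lower than in them (28.4% of all genes lower). The xylem sum there ran from 15.4 to 34.6. The part of fewer vascular cells in the differences of HB8 and REV was not tested.

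Over the 41 group means of log2(x + 1), the 5 members varied together to unequal degrees, given as Pearson correlations without a test. HB8 and REV correlated at 0.871, PHB and HB15 at 0.846 and REV and PHV at 0.832, and the lowest pair was HB8 and PHB at 0.441. The groups share times and conditions, so these values describe a course and not independent points. Among the 15425 genes that averaged 5 or more in x, the gene whose course was most like HB8 was PXY, the receptor kinase of cambium, at 0.975, followed by AT2G37930 at 0.97, AT4G15450, AT1G47670 and AT2G23950 at 0.958. REV was most like MAKR2 at 0.957 and CYCD3;1, a D-type cyclin, at 0.948. The courses most like PHV were AT5G25475 at 0.893 and SUT4, a sucrose transporter, at 0.878. PHB was most like AT5G19740 at 0.911 and HB15 most like AT1G80870 at 0.909, followed for HB15 by AT4G29100 and ZFP4. No member appears among the 5 genes nearest to another, since members were left out of that ranking. PHB and PHV are close relatives, and how the authors counted reads that fit both was not given in the sources used here.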

How the data were processed

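Poly(A) RNA of 82 Arabidopsis hypocotyl libraries was made with a stranded TruSeq kit and 15 PCR cycles, per the labels' protocols. Trimming with cutadapt 1.8.1, alignment software Bowtie2 and genome build TAIR10 are listed in the submitters' processing notes. Which program counted reads, whether strand was used and how libraries were scaled was not given in the sources used here. The deposited values are treated as a score, normalised per library by the authors, and in a second table also per gene length. Totals of the first table were 10.05 to 19.7 M per library, with a 75th percentile of 373 to 398. The first table was multiplied by 1 constant (x = deposited value / 12.4). Depth is an estimate that could be resolved for 52 libraries. It covers counting error only, as PCR reads without molecular identifiers are not independent. No count test was run.

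Genes with x of at least 1 in 2 libraries (20766 of 27416) were tested on log2(x + 1), where the pseudocount of 1 understates the change of low genes. The model was limma 3.58.1 (R 4.3.3; eBayes with trend) with 1 mean for each group and 41 residual degrees of freedom. P-values were two-sided and adjusted by Benjamini-Hochberg over all genes within each of 28 contrasts. A window averages 3, 2 or 3 times, with 6, 4 or 6 libraries a side, and single times have no test. In data simulated with 20766 genes for grafted against separated bottoms at 6 to 24 h, the test recovered 51 of 67 genes made to change 1.5-fold, 66 of 67 at 2-fold and 66 of 66 at 4-fold, with 3 unchanged genes called. The simulation changed few genes and drew noise independently for each gene and library. In the real comparison 34.6% of genes were called, and replicate deviations of conditions correlated, so these rates need not hold there. Replicate deviations of grafted tops correlated with those of grafted bottoms of the same number at 0.148 to 0.506, over 0.1 at 8 of 8 times. No label states a pairing, and by this check the numbers pair these samples. In the other pairs of conditions the correlation passed 0.1 at 5 or 6 of 8 times.

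The members, gene lists and tests were chosen with earlier results of these data known. The named genes are the 5 members, genes of the listed groups, and for each member the 5 genes with the most similar course. Another gene of these groups is not reported here. Sequences and coordinates come from the RefSeq TAIR10.1 reference, in which 26719 identifiers of the table were found. Alternatives were other pseudocounts, filters and scalings, the table per gene length, a fit of the compared groups only, a replicate block and leaving out each library. Tables and figures were made in Python 3.11.15 with NumPy 2.4.6, pandas 2.3.3 and Matplotlib 3.10.9.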

Additional observations from a re-analysis of the deposited data

Results flagged for a closer look

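The difference between top and bottom depended on joining in 11 cases, each tested as the difference of differences, grafted top minus bottom less separated top minus bottom, on the log2 scale with limma and adjusted over all genes. At 6 to 24 h it was -3.65 ± 0.20 in HB8, -0.68 ± 0.17 in REV and -0.45 ± 0.12 in PHB (background 22% of genes). At 48 to 72 h it was -4.31 ± 0.24 in HB8, -1.72 ± 0.20 in REV, -0.62 ± 0.19 in PHV and -0.49 ± 0.15 in PHB (55.4%). At 120 to 240 h it was -3.15 ± 0.20 in HB8, -1.92 ± 0.17 in REV, -1.15 ± 0.16 in PHV and -0.88 ± 0.14 in HB15 (69.6%). A negative value means that the gap between top and bottom was smaller in grafted than in separated plants. In HB8 the gap at 6 to 24 h was 1.07 ± 0.14 in grafted plants and 4.72 ± 0.14 in separated plants. PHB at 120 to 240 h was at -0.16 ± 0.12 (adjusted p = 0.23) and was called under quantile normalisation (-0.55, adjusted p = 8.1e-05). HB15 was not called at 6 to 24 h (-0.06 ± 0.14) or 48 to 72 h (-0.09 ± 0.17).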

How the results depend on the processing

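Of 1260 member differences recomputed under other settings, 1237 kept direction and side of the threshold, 9 lost their call, 12 gained one and 2 changed sign, neither of them called: PHB in separated bottoms against intact hypocotyls at 48 to 72 h, -0.22 under quantile normalisation against 0.04, and PHV in grafted against separated tops at 48 to 72 h, -0.00075 in the table per gene length against 0.0075. With the replicate block 140 of 140 member differences kept direction and call. The count of genes called between grafted and separated tops at 6 to 24 h, 72, was 32 with a pseudocount of 0.1, 19 with a filter on mean x of at least 5, 43 with only the compared groups fitted, and 44 to 71 with 1 library left out. Members called between grafted tops and bottoms at 120 to 240 h were 4 under quantile normalisation against 2. With only the compared groups fitted, members called were 1 (grafted bottoms against intact, 6 to 24 h), 2 (the same, 48 to 72 h), 2 (grafted against separated tops, 48 to 72 h) and 2 (intact late against early), against 2, 4, 1 and 4; the cause was not tested.

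With 1 library left out, 1588 of 1660 member differences kept direction and call, 44 lost and 6 gained a call, and 22 changed sign, none of these called with all libraries. Members called ranged from 1 to 3 and 2 to 4 in grafted bottoms against intact hypocotyls (6 to 24 h, 48 to 72 h) and from 0 to 1 and 1 to 3 in grafted against separated tops (48 to 72 h, 120 to 240 h). The ranges of the differences that changed sign were -0.16 to 0.0329 (HB15, difference of differences, 6 to 24 h), -0.0186 to 0.0880 and -0.0487 to 0.0555 (HB8 and PHB, grafted against separated tops, 6 to 24 h), -0.10 to 0.12 and -0.0467 to 0.0567 (PHV, the same, 48 to 72 h and 120 to 240 h), -0.0565 to 0.13 and -0.17 to 0.0844 (PHB and PHV, separated bottoms against intact, 48 to 72 h) and -0.10 to 0.20 (PHV, separated tops against intact, 6 to 24 h).

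The share of calls that were higher moved by over 10 points at 120 to 240 h under quantile normalisation, in grafted tops against intact (44.2%, as deposited 55.3%), separated tops against intact (51.8%, as deposited 62.6%) and separated tops against bottoms (52.0%, as deposited 62.0%). Under median-of-ratios scaling it moved in grafted bottoms against intact at 120 to 240 h (57.6%, as deposited 47.4%) and grafted against separated tops at 48 to 72 h (55.9%, as deposited 36.8%). Quantile normalisation moved the median of all genes by over 0.1 in separated tops against intact (to 0.02, as deposited 0.13, at 48 to 72 h and to 0.03, as deposited 0.17, at 120 to 240 h), grafted against separated bottoms at 120 to 240 h (to -0.11, as deposited 0.01), and the difference of differences (to 0.01, as deposited -0.12, at 48 to 72 h and to 0.00, as deposited -0.18, at 120 to 240 h). Low x rests on few reads, so HB8, TMO5 and BUD2 in separated bottoms have a wider counting error than members at higher levels.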
